A study of Homo sapiens with 12 samples.

Results

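The elements described here are short RNA elements that depart from the Pumilio consensus TGTANATA (DNA letters, N any base) at exactly 2 of its 7 fixed positions: position 4, which is A in the consensus, and 1 of positions 1, 2 or 3, which are T, G and T. Position 1 is the 5′ base of the 8-base element. There were 108 such elements among the 1006 entries listed in all 12 libraries, 36 for each of the 3 positions that carried the other substitution. They form 27 families of 4, in which both substitutions are the same and position 5 is A, C, G or T. The rule for membership uses the sequence and no measured value, although earlier results of these data were known when it was written.

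Pumilio proteins are sequence-specific RNA-binding proteins that sit on the 3′ untranslated region of target mRNAs and recruit deadenylases, so that the target is translated less and decays faster. Each repeat of their curved RNA-binding domain contacts a base of the element, and the UGUA at the 5′ end of the Pumilio response element is its most conserved stretch. In RBPscan the RNA-binding protein is fused to the catalytic domain of ADAR, the enzyme that deaminates adenosine to inosine, so that binding next to a recorder hairpin leaves edits, read as A-to-G changes.

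Human PUM2 (hsPUM2) fused to ADARcdMUT, the altered ADAR catalytic domain, was tested in HEK293T cells, a line derived from human embryonic kidney and labelled as wild type throughout, which carried a library of recorder mRNAs with 1 element each. There were 3 biological replicates in each of 4 groups: the hsPUM2-ADARcdMUT fusion at 250 ng, the same fusion at 25 ng, ADARcdMUT without PUM2 at 1000 ng, and the fusion without induction. Doxycycline was the inducer of the fusion per the series text, while the titles give the amounts with no volume or substance, so it is unclear whether the 1000 ng is on the same scale. Neither protein levels nor the sequence after each element in the recorder were used here, and amplicon reads hold no marker genes against which the cell line could be checked. The libraries held 11235321 to 25127959 reads, 10.1% to 11.0% of them from these 108 elements, and each of the 108 had 3974 to 44248 reads per library. Editing levels are given as percent: edits summed over the reads of an element, divided by 7 times its reads, since each read covers 7 recorder adenosines. Changes are differences in log2 odds of editing, tested with limma across all entries with Benjamini-Hochberg adjustment, and called at an adjusted p under 0.05.

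The 108 elements do not all lack the Pumilio core letters. In elements with A4G (the consensus base, its position, then the element's base), T at position 5 and an unchanged position 3, the letters TGTA reappear at positions 3 to 6, 2 bases after the place they hold in the consensus. With the A, T and A that all 108 elements keep at positions 6 to 8, these elements hold TGTATA at positions 3 to 8. The search was for TGTA, TGT and TGTATA on the element's own strand. The same 6 of the 108 elements (5.56%) held each of these, against 18.4%, 35.1% and 2.39% of the 1005 entries of 8 bases. The 6 are shown first, with the capitals marking TGTA:
G2C and A4G: tcTGTAta
G2T and A4G: ttTGTAta
G2A and A4G: taTGTAta
T1A and A4G: agTGTAta
T1C and A4G: cgTGTAta
T1G and A4G: ggTGTAta

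The closest counterparts have the same G at position 4 and T at position 5, but the other substitution falls on position 3 and breaks the shifted letters. They are shown with the 2 substituted bases in capitals:
T3A and A4G: tgAGtata
T3C and A4G: tgCGtata
T3G and A4G: tgGGtata

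The single-substitution parent of all of these, and the consensus element with the same base at position 5, are shown with TGTA in capitals, at positions 3 to 6 in the parent and 1 to 4 in the consensus:
A4G: tgTGTAta
Consensus with T at position 5: TGTAtata

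Editing of all 108 elements rose with the fusion. Their median level was 1.85% ± 0.109 (SD, n = 3) without induction, 4.34% ± 0.174 at 25 ng and 7.83% ± 0.078 at 250 ng, and it was 1.97% ± 0.136 with ADARcdMUT alone. The median over all 1006 entries lay close by, at 1.82% without induction, 4.35% at 25 ng, 7.87% at 250 ng and 1.95% with ADARcdMUT alone. In log2 odds the 108 elements rose by a median of 2.19 at 250 ng against no induction and 1.26 at 25 ng against no induction, where all entries rose by 2.21 and 1.29. All 108 were called higher in both comparisons, in 250 ng against 25 ng, and in either amount against ADARcdMUT, and in each of these 5 comparisons the 3 libraries of one group lay above the 3 of the other for all 108. The background of calls was 100% in each, since every entry of the library was called higher, so these counts do not set the 108 elements apart. The share of all entries whose libraries did not overlap is not given here.

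ADARcdMUT alone and the non-induced fusion gave median levels close to each other. Limma called 0 of the 108 elements in either direction between them, with 23 at an unadjusted p under 0.05 (177 of all 1006). The background was 0.199% higher and 0% lower. The median difference in log2 odds was 0.11 for the 108 elements and 0.09 for all entries. Relative to each library's median the limma count was also 0, against a background of 0.199% higher and 0% lower. On this scale 14 of 108 had an unadjusted p under 0.05 (134 of all 1006). Without ADARcdMUT replicate 3 13 elements were higher on the absolute scale, and without ADARcdMUT replicate 2 1 was higher relative to the median. The shares of all entries called with a library left out are not given, here or below, so such counts do not set the 108 elements apart.

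To see which elements gained more editing than the rest of the library, log2 odds were taken relative to each library's median, and all changes that follow are on this scale unless named otherwise. At 250 ng against no induction 5 of the 108 elements (4.63%) were higher and 2 lower, against a background of 9.64% higher and 3.38% lower. An unadjusted p under 0.05 was found for 21 of 108 (19.4%), against 263 of all 1006 (26.1%). At 25 ng against no induction 5 were higher and 0 lower, against 7.06% and 2.19%. The share of higher elements was thus below that of the library in both comparisons. The same 5 elements were called at both amounts, and each is among the 6 that hold TGTA at positions 3 to 6. The median change of the 102 elements without TGTA was -0.03 at both amounts. Without 25 ng replicate 1 or 2 or non-induced replicate 3 the count at 25 ng was 3, all of them among the 6, and GGTGTATA and TATGTATA were lost.

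TCTGTATA (G2C and A4G) had the highest level of the 108 elements at 250 ng. It was edited at 10.5%, 10.6% and 10.9% in replicates 1, 2 and 3 at 250 ng, against 1.59%, 1.88% and 1.68% without induction, a 6.20-fold difference of means. At 25 ng it was at 5.44%, 6.10% and 5.41%, against 2.08%, 1.88% and 1.56% with ADARcdMUT alone. No library of one group overlapped those of the other in either pair. Relative to the library median it rose by 0.57 at 250 ng (SE 0.06, limma adjusted p = 1.34e-05) and by 0.49 at 25 ng (SE 0.06, limma adjusted p = 8.59e-05) over no induction.

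TTTGTATA (G2T and A4G) was at 10.2%, 10.2% and 10.6% at 250 ng, against 1.59%, 1.93% and 1.64% without induction. Its libraries were at 5.44%, 5.52% and 5.35% at 25 ng, against 2.09%, 1.77% and 1.90% with ADARcdMUT alone. Both sets of induced libraries lay above all libraries they were set against. The relative change was 0.53 (SE 0.06, limma adjusted p = 3.60e-05) at 250 ng and 0.43 (limma adjusted p = 0.000259) at 25 ng.

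TATGTATA (G2A and A4G) was at 9.76%, 10.1% and 10.7% at 250 ng, against 1.78%, 2.19% and 1.77% without induction. At 25 ng it was at 5.42%, 5.75% and 5.10%, against 1.94%, 1.96% and 1.84% with ADARcdMUT alone. Its 250 ng libraries were more spread out than those of the other 5 elements with TGTA, and replicate 3 was the highest. The relative change was 0.34 (SE 0.06, limma adjusted p = 0.00159) at 250 ng and 0.27 (limma adjusted p = 0.0112) at 25 ng. When the share of reads edited was tested instead, neither was called (limma adjusted p = 0.0969 at 250 ng and 0.351 at 25 ng).

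AGTGTATA (T1A and A4G) was the highest of the 3 elements whose other substitution is at position 1. Its libraries were at 9.87%, 9.93% and 10.4% at 250 ng, against 1.71%, 1.87% and 1.77% without induction, with no overlap. It was at 5.41%, 5.35% and 5.03% at 25 ng, against 2.15%, 1.88% and 1.77% with ADARcdMUT alone. The relative change was 0.42 (SE 0.05, limma adjusted p = 7.21e-05) at 250 ng and 0.32 (limma adjusted p = 0.000932) at 25 ng.

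GGTGTATA (T1G and A4G) was lower, at 9.07%, 9.26% and 9.47% at 250 ng, against 1.75%, 2.02% and 1.85% without induction. It was at 4.98%, 5.12% and 4.83% at 25 ng, against 2.02%, 2.01% and 1.75% with ADARcdMUT alone. Its relative change passed the threshold by less at 25 ng (0.17, SE 0.05, limma adjusted p = 0.0428) than at 250 ng (0.22, SE 0.05, limma adjusted p = 0.00604). The call at 25 ng was kept in 8 of 20 other settings on the log2 odds scale (limma adjusted p up to 0.144). It was lost without any 1 library at 250 ng or 25 ng, and without non-induced replicate 1 or 3. It was also lost with a block for replicate number, a fit of only the 2 groups, eBayes without trend and centring on the mean. The share of reads edited lost it too, and also lost the call at 250 ng (limma adjusted p = 0.369).

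CGTGTATA (T1C and A4G) was the remaining element with TGTA, and it missed the threshold at both amounts. It was at 8.99%, 9.22% and 9.68% at 250 ng, against 1.72%, 2.0% and 2.02% without induction, and at 4.81%, 5.14% and 4.82% at 25 ng, against 2.12%, 1.82% and 1.96% with ADARcdMUT alone. The induced libraries did not overlap those they were set against, but relative to the library median the change was 0.19 (SE 0.06, limma adjusted p = 0.0520) at 250 ng and 0.12 (SE 0.06, limma adjusted p = 0.281) at 25 ng. In 9 of 22 other settings, left-out libraries included, CGTGTATA was called higher at 250 ng, among them the block for replicate number and the fit of only the 2 groups. At 25 ng this was so in 0 of 22. A p just past the threshold does not show that it responded less than the other 5, a difference that was not tested.

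The 6 elements with TGTA took the first 6 places in the order of mean level at 250 ng. TCTGTATA (10.6% ± 0.231, SD, n = 3), TTTGTATA (10.4% ± 0.245), TATGTATA (10.2% ± 0.455) and AGTGTATA (10.1% ± 0.265) overlapped from neighbour to neighbour. AGTGTATA did not overlap CGTGTATA (9.30% ± 0.355), which overlapped GGTGTATA (9.26% ± 0.201). The lowest single library of the 6 was at 8.99%, above the highest library of all other 102 elements, 8.74% in TTTCTATA. Next in the order of means was TTTTTATA at 8.52% ± 0.069, which does not hold TGT, with 8.47%, 8.48% and 8.60% at 250 ng, against 1.75%, 1.91% and 1.83% without induction. The median over the 3 elements substituted at position 2 was 10.4% ± 0.251 at 250 ng, and that over the 3 substituted at position 1 was 9.34% ± 0.316. At 25 ng these medians were 5.51% ± 0.209 and 4.98% ± 0.153.

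Without the induced fusion the 6 had levels among those of the other elements. Their median level was 1.92% ± 0.144 (SD, n = 3) with ADARcdMUT alone and 1.82% ± 0.129 without induction, against 1.98% ± 0.142 and 1.85% ± 0.109 for the other 102 elements. At 25 ng the medians were 5.31% ± 0.208 for the 6 and 4.33% ± 0.177 for the 102, and at 250 ng 10.1% ± 0.354 and 7.81% ± 0.092. Between ADARcdMUT alone and no induction the 6 differed by -0.09 to 0.07 relative to the library median, and limma called 0 of them. In the order of the 108 levels without induction TATGTATA held place 28, CGTGTATA 29, GGTGTATA 43, AGTGTATA 78, TTTGTATA 100 and TCTGTATA 102. TCTGTATA and TTTGTATA, with the largest relative changes, were thus the lowest of the 6 there, in an order less alike between replicates than that at 250 ng.

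The 3 counterparts with the same G and T at positions 4 and 5, but with position 3 substituted, had levels within the range of the 102 elements without TGTA. TGAGTATA was at 7.57%, 8.07% and 8.18% at 250 ng, against 1.70%, 2.04% and 1.72% without induction. TGCGTATA was at 8.0%, 7.90% and 8.11%, against 1.83%, 2.12% and 2.32%, and TGGGTATA at 8.08%, 8.17% and 8.42%, against 1.81%, 2.03% and 2.06%. All their 250 ng libraries lay below the lowest library of the 6 elements with TGTA. Relative to the library median their changes were from -0.17 to 0.01 and 0 were called. Another 12 elements have T at position 5 and the same substitutions at position 1 or 2 as the 6, but A4C or A4T in place of A4G. They hold no TGT, had mean levels of 7.84% to 8.52% at 250 ng, changed by -0.00 to 0.14 relative to the library median, and 0 of 12 were called.

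Position 5 was examined by setting each element against the mean log2 odds of the other 3 elements of its family, which carry the same 2 substitutions. At 250 ng against no induction 5 of the 108 contrasts were higher and 1 lower, against a background of 1.54% higher and 1.3% lower over 844 contrasts. At 25 ng against no induction 5 were higher and 0 lower, against 0.948% and 0.355%. The 5 were the same elements as above, and the contrasts of a family share their elements, so a rise of 1 element lowers the other 3. With 250 ng the contrast rose by 0.68 (SE 0.08, limma adjusted p = 4.25e-05) for TCTGTATA, 0.58 (SE 0.07) for TTTGTATA, 0.47 (SE 0.07) for AGTGTATA, 0.40 (SE 0.08) for TATGTATA and 0.38 (SE 0.07) for GGTGTATA. For CGTGTATA it was 0.23 (SE 0.08, limma adjusted p = 0.111). Each of the 6 lay above every library of its 3 family members at 250 ng, and 3 of the 6 (AGTGTATA, TATGTATA and TCTGTATA) did so at 25 ng. The count of 5 at 250 ng was 3 without 250 ng replicate 3, and that at 25 ng was 2 without 25 ng replicate 1 and 3 without 25 ng replicate 3, non-induced replicate 1 or 3, or any 1 library at 250 ng.

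The 18 other elements in these 6 families, which differ only by A, C or G at position 5 and so lack TGTA, had mean levels of 6.41% to 8.33% at 250 ng. Their median relative change was -0.10, with 0 called higher and 1 lower (CGTGGATA). The lower contrast in position 5 was that of TCTGGATA, a family member of TCTGTATA, at -0.28 (SE 0.07, limma adjusted p = 0.0323), and this count was 0 to 5 when 1 library was left out. Between ADARcdMUT alone and no induction 0 of 108 contrasts passed by limma, and the background was 0% in either direction. Among the 108, 10 had an unadjusted p under 0.05 (100 of all 844).

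T at position 5 also gave the highest level in most families without TGTA, by smaller margins. At 250 ng T gave the highest mean level in 26 of 27 families, and in 20 of the 21 without TGTA. The count for T was 2 of 27 without induction, 19 of 27 at 25 ng and 26 of 27 at 250 ng, and it was 13 of 27 with ADARcdMUT alone. In the 21 families without TGTA it was 2 without induction, 13 at 25 ng and 20 at 250 ng, and it was also 13 with ADARcdMUT alone, so there the 25 ng count equalled that without PUM2. Among the 184 families of other elements in the library T was highest in 56 (30.4%) without induction, 107 (58.2%) at 25 ng and 142 (77.2%) at 250 ng, and in 61 (33.2%) with ADARcdMUT alone. In the 21 elements with T at position 5 but no TGTA the median level was 8.10% ± 0.151 (SD, n = 3) at 250 ng, against 7.73% ± 0.071 with A, 7.73% ± 0.085 with C and 7.79% ± 0.083 with G. At 250 ng against no induction none of these 21 was called by limma relative to the library median, at a median change of 0.04.

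Elements with G at position 5 had the lowest median change of the 4 bases. The median relative change at 250 ng against no induction was -0.08 over the 27 elements with G at position 5, against -0.05 with A, -0.04 with C and 0.07 with T, and it was -0.15 over the 9 with G at both positions 4 and 5. The median level of the same 9 was 8.02% ± 0.046 (SD, n = 3) at 250 ng and 1.98% ± 0.133 without induction, where that of all 108 was 1.85%. G gave the highest level in 0 of the 27 families at 250 ng and in 12 without induction. Outside them G was highest in 4 of the 184 families of other elements at 250 ng and in 58 without induction. Both elements called lower at 250 ng have G at position 5. TGGTGATA was at 7.79%, 7.95% and 7.65% at 250 ng, against 1.91%, 2.32% and 2.02% without induction (relative change -0.21, SE 0.06, limma adjusted p = 0.0245). CGTGGATA was at 8.09%, 7.94% and 8.06%, against 1.92%, 2.27% and 2.18% (relative change -0.19, SE 0.06, limma adjusted p = 0.0405). Their folds over no induction were 3.75 and 3.78, while CGTGGATA and TGGTGATA held places 2 and 4 in the order of levels without induction, below GGTGGATA at 2.12% ± 0.114. The count of lower elements was 0 without any 1 of the 3 libraries at 250 ng, 1 without any 1 of those at 25 ng and 4 without ADARcdMUT replicate 2. At 25 ng 0 were lower, and the most extreme values there were -0.18 for TTTGCATA, -0.18 for TGCCAATA and -0.17 for TGCTCATA.

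The lowest element in all 4 groups was CGTGCATA. Its libraries were at 6.36%, 6.55% and 6.32% at 250 ng, against 1.27%, 1.49% and 1.23% without induction. It was at 3.28%, 3.34% and 3.37% at 25 ng, against 1.20%, 1.21% and 1.31% with ADARcdMUT alone. The low level was thus present in the absence of induction and of PUM2, and its fold at 250 ng over no induction was 4.82, above the 4.24-fold of the median over the 108 elements. It was followed from below at 250 ng by CGTCAATA (7.22% ± 0.154, SD, n = 3), TCTCGATA (7.33% ± 0.301) and CGTCCATA (7.39% ± 0.126), all with C at position 4, which overlapped each other but not CGTGCATA.

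Against ADARcdMUT alone 7 of 108 elements were higher and 3 lower at 250 ng relative to the library median, against a background of 10.3% and 4.37%. The 7 were all 6 elements with TGTA, from 0.25 (SE 0.06, limma adjusted p = 0.0142) for CGTGTATA to 0.57 (SE 0.06, limma adjusted p = 1.22e-05) for TCTGTATA, and CGTGCATA at 0.34 (SE 0.10, limma adjusted p = 0.0300). The call of CGTGCATA was kept in 11 of 20 other settings on the log2 odds scale (limma adjusted p up to 0.202), being lost among others without any 1 library at 250 ng, and on the arcsine square root scale its sign turned, at -5.7e-05. The 3 lower ones were CGTGGATA at -0.25, TGGGTATA at -0.25 and TGCCAATA at -0.20. TGGGTATA was at 2.88%, 2.29% and 2.10% with ADARcdMUT alone, so replicate 1 stood highest there. At 25 ng against ADARcdMUT 5 were higher and 3 lower, against 7.55% and 2.49%. The 5 were the elements with TGTA other than CGTGTATA (0.17, SE 0.06, limma adjusted p = 0.0885), and the lower ones were TGGGTATA at -0.33, TGCCAATA at -0.25 and TCTTAATA at -0.18. The comparisons with ADARcdMUT and with no induction share their fusion libraries. The lower count at 250 ng was 1 without any 1 library at 250 ng or 25 ng replicate 1, and 8 and 6 without ADARcdMUT replicates 2 and 3. At 25 ng it was 0 without 25 ng replicate 2 and 8 without ADARcdMUT replicate 2, and the higher count was 9 without ADARcdMUT replicate 3.

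The step between the 2 amounts gave no call on the log2 odds scale. Relative to the library median limma called 0 of 108 at 250 ng against 25 ng, and the background was 0% in either direction. An unadjusted p under 0.05 was found for 1 of 108 (4 of all 1006). On the arcsine square root scale 4 of the 108 were called higher. The changes ran from -0.16 to 0.11, and those of the 6 elements with TGTA were all above 0, from 0.05 (SE 0.05) for GGTGTATA to 0.10 (SE 0.05) for AGTGTATA, each with a limma adjusted p of 0.998. In levels the median of the 6 was 1.91 times as high at 250 ng as at 25 ng, and that of the other 102 was 1.80 times as high.

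None of the 108 reached the consensus. Every element lay below the consensus element with the same base at position 5 in every 250 ng library. The 4 consensus elements had a median of 13.3% ± 0.288 (SD, n = 3) at 250 ng, and their folds over no induction were 6.58 to 7.68. Taking the gain in points over no induction, the 6 elements with TGTA kept 61.1% to 73.9% of the gain of TGTATATA, with TCTGTATA at the top. The other 102 kept 44.0% to 64.7% of the gain of their consensus element, with a median of 52.3%. These shares overlap because the consensus element with G at position 5 gained less, so that some elements with G there had a higher share.

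Each element was also set against its 2 single-substitution parents with the same base at position 5, which asks whether adding the second substitution changed the response. At 250 ng against no induction 82 of the 216 contrasts were lower and 5 higher, against a background of 45.6% lower and 0.926% higher over 1512 contrasts of the library. At 25 ng 55 were lower and 4 higher, against 37.5% and 0.595%. Contrasts that share a parent are not independent. Leaving out 250 ng replicate 1, 2 or 3 gave 51, 51 and 42 lower contrasts at 250 ng, and the higher count was 1 without any 1 of them and 3 without non-induced replicate 1 or 3. At 25 ng the lower count was 31 and 23 without 25 ng replicate 1 or 2, and the higher count was 0 without 25 ng replicate 2, 1 without 25 ng replicate 3 or non-induced replicate 3, and 2 without 250 ng replicate 2. Adding a substitution at positions 1 to 3 to a parent already changed at position 4 moved the response by a median of -0.24 at 250 ng, with 57 of 108 lower and 1 higher. Adding the position 4 substitution to a parent changed at positions 1 to 3 moved it by a median of -0.14, with 25 of 108 lower and 4 higher. The background was not split by type of parent, so these counts do not set the 108 elements apart, and the difference between them was not tested. Of the 12 contrasts of the 6 elements with TGTA 0 were lower and 2 higher.

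The parent of all 6 is TGTGTATA, which itself holds TGTATA at positions 3 to 8. It was at 10.2%, 10.3% and 10.6% at 250 ng, against 1.76%, 2.15% and 1.89% without induction, and its relative change was 0.35 (SE 0.06, limma adjusted p = 0.000680). Against this parent the response of TCTGTATA was higher by 0.22 (SE 0.07, limma adjusted p = 0.0234). At 250 ng the libraries of TCTGTATA (10.5% to 10.9%) overlapped those of this parent. Without induction TCTGTATA was at 1.72% ± 0.149 (SD, n = 3), where the order of elements was less alike between replicates than at 250 ng. The part of that level in the contrast was not tested. The responses of AGTGTATA (0.07), TATGTATA (-0.01), TTTGTATA (0.17), GGTGTATA (-0.13) and CGTGTATA (-0.16) did not pass against this parent, with SEs of 0.07 to 0.09. TTTGTATA was higher than its other parent TTTATATA by 0.26 (SE 0.09, limma adjusted p = 0.0258), so that the element with 2 substitutions, at 10.4% ± 0.245 (SD, n = 3), stood above the parent with 1, at 9.11% ± 0.433. The remaining 3 higher contrasts share the parent TGGATATA and belong to TGGCTATA (0.36, SE 0.09), TGGTTATA (0.26, SE 0.09) and TGGGTATA (0.23, SE 0.08). Over the other settings on the log2 odds scale, left-out libraries included, the call was kept in 17 of 17 for TGGCTATA, 15 of 18 for TCTGTATA against TGTGTATA, 13 of 17 for TGGTTATA and for TGGGTATA, and 12 of 17 for TTTGTATA (adjusted p up to 0.0941). That parent was itself lower than the library at 250 ng (-0.27, SE 0.08, limma adjusted p = 0.0368), with 8.08% ± 0.072 at 250 ng, against 2.25% ± 0.044 without induction.

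Set beside related elements at 250 ng, the 6 elements with TGTA (median 10.1%) had levels within the range of elements that keep TGTATA at positions 1 to 6 and are changed at positions 7 and 8. Those 9 elements ranged from 8.24% to 10.9% with a median of 9.36% ± 0.338 (SD, n = 3), and 4 of 9 were called higher relative to the library median. The 12 single substitutions at position 4 had a median of 9.37% ± 0.162 and the 36 at positions 1 to 3 one of 8.27% ± 0.159. The 102 elements without TGTA (7.81% ± 0.092) lay near the 108 elements with 2 substitutions within positions 1 to 3 (7.84% ± 0.126) and the 108 with position 4 and 1 of positions 6 to 8 substituted (7.86% ± 0.090). Of these 108 and 108, 4 and 2 were called higher and 0 and 5 lower. Differences between these groups of elements were not tested.

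The number of reads per element, which reflects the abundance of each recorder RNA and its amplification, was compared with edgeR. It called 0 of 108 elements in 250 ng, 25 ng or ADARcdMUT libraries against no induction, and the background was 0% in each. At 250 ng 50 of 108 elements had an unadjusted p under 0.05 (430 of all 1006) and the smallest adjusted p was 0.0766, at 25 ng 0 had one (1 of 1006), and with ADARcdMUT alone 23 had one (255 of 1006). The most extreme elements at 250 ng were TGCGTATA (0.48, SE 0.14) and CGTTTATA (0.47, SE 0.14) upward and GGTGAATA (-0.26, SE 0.09) and TGAGAATA (-0.25, SE 0.08) downward, in log2 of the normalized read number. DESeq2 on the same counts called 24 higher and 14 lower at 250 ng and 6 higher with ADARcdMUT alone, and edgeR with the replicate number as a block called 24 higher and 11 lower at 250 ng. Without 25 ng replicate 2 edgeR called 32 higher and 18 lower at 250 ng and 8 higher and 2 lower with ADARcdMUT alone. It called 19 and 10 at 250 ng without 25 ng replicate 1, and 13 higher with ADARcdMUT alone without ADARcdMUT replicate 3. The shares of all 1006 entries called under these alternatives are not given here, so these counts do not set the 108 elements apart. For the 6 elements with TGTA the read differences at 250 ng were 0.04 to 0.25, and the part of read number in their editing was not tested.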

How the data were processed

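Each deposited table holds 1 library. Per the labels, PCR amplicons spanning element and recorder hairpin were sequenced. The RNA extraction label mentions embryos of another species, but source, cell line and series text all say HEK293T, as taken here. The aligner, edit caller and filters were not given in the sources used here. Deposited by the authors for each element were counts of reads, of reads with an edit, of edits summed over reads and of all reads of the library. They also deposited 2 percent columns and an efficiency score. The deposited percent edited equals edits over 7 times reads, within 1e-09. The deposited score and percent of reads were not used. Only elements with over 1000 reads are listed (lowest 1015), and 16 of 1022 elements not in all 12 tables were left out. No molecular identifiers are mentioned, so reads may be PCR copies, and precision was taken from replicates. A chi-squared test of read numbers between replicates of a group gave 6.24 to 202 per degree of freedom. No library was thus treated as a copy of another in its group. Libraries of different groups were not tested. The 202 was for 25 ng replicates 1 and 2. CGTTTATA had 12997 of 23003929 reads in 25 ng replicate 1 and 4626 of 11868229 in 25 ng replicate 2. In 250 ng replicate 2 it had 14325 of 25127959. Whether reads of 25 ng replicate 1 were more like those at 250 ng was not tested. In editing, the 25 ng libraries lay below all 250 ng libraries for all 108 elements.

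The value tested was log2((edits + 0.5)/(7 × reads − edits + 0.5)), also minus its median over each library, and as position 5 and second-substitution contrasts. It was fitted with limma 3.58.1 in R 4.3.3 (lmFit, eBayes with trend), 12 libraries and 4 groups in 1 fit, with Benjamini-Hochberg adjustment over all entries or contrasts. Reads were tested with edgeR 4.0.16 (TMM, quasi-likelihood), with DESeq2 1.42.0 as an alternative. Scripts used Python 3.11.15 with numpy 2.4.6, pandas 2.3.3 and scipy 1.17.1, and the fits were checked on simulated data. Other settings were pseudocounts 0.1 and 5, arcsine square root values, edited reads as a share of reads, a minimum of 5000 reads, fits of 2 groups, eBayes without trend, centring on the mean or on elements without TGT, a block for replicate number, and leaving out each library.

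The elements, groupings and tests were chosen with earlier results of these data known. Named elements are the 6 with TGTA and their families, called elements whose libraries do not overlap (at most 8 each way, otherwise the most extreme), the 4 highest and 4 lowest at 250 ng, the extremes without induction, consensus elements and parents. TTTCTATA and TGATTATA were named after their values were seen. Whether replicate numbers pair libraries was checked by the correlation of deviations from group means. For editing these were from -0.095 to 0.074 for equal numbers, so the numbers were not used to pair libraries.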

Additional observations from a re-analysis of the deposited data

How the results depend on the processing

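Of the alternatives other than leaving out a library, 300 of 340 values of the main counts and levels stayed within 1.5 times the main count or within 1 SD. On the absolute scale every tested one of the 108 elements was called higher with the fusion under every alternative (104 were tested with the minimum of 5000 reads). The elements called higher against no induction were all among the 6 with TGTA under these alternatives, except that the arcsine square root scale added TTTTTATA at 250 ng and TGATTATA at 25 ng. For the values below the cause was not tested. The shares of all entries called under the same settings are not given, so these counts do not set the 108 elements apart.

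A pseudocount of 5 gave 2 lower position 5 contrasts at 250 ng. The arcsine scale gave 6 lower elements against ADARcdMUT at 250 ng and 6 at 25 ng, 4 higher in 250 ng against 25 ng, 8 and 3 lower position 5 contrasts at 250 ng and 25 ng, and 134 and 92 lower second-substitution contrasts. On that scale the change of CGTGCATA at 250 ng against ADARcdMUT was -5.7e-05, on the arcsine scale's own unit, so its sign turned. The share of reads edited gave 3 higher elements at 250 ng against no induction, 3 higher and 2 lower at 25 ng, 5 lower at 250 ng against ADARcdMUT, 3 higher and 5 lower at 25 ng against ADARcdMUT, 2 lower position 5 contrasts at 250 ng and 2 higher at 25 ng, and second-substitution contrasts of 2 higher and 43 lower at 250 ng and 2 higher and 27 lower at 25 ng. A fit of only the 2 groups gave 5 lower elements at 250 ng against no induction, 1 and 0 lower against ADARcdMUT at 250 ng and 25 ng, and 6 and 1 lower position 5 contrasts. Requiring 5000 reads gave 3 and 1 lower position 5 contrasts and 1 higher second-substitution contrast at each amount, and 4 of the 108 elements were then left out. Centring on the mean gave 11 and 5 lower elements against ADARcdMUT at 250 ng and 25 ng. DESeq2 called reads of 24 elements higher and 14 lower at 250 ng, and 6 higher with ADARcdMUT alone. The level at 250 ng was 7.94% as a mean over the elements and 7.93% with reads summed.

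With the replicate number as a block 1 element was lower at 250 ng against no induction, 3 position 5 contrasts were higher at 25 ng, and edgeR called reads of 24 elements higher and 11 lower at 250 ng. The labels do not say that equal numbers share a day or batch, and correlations of equal numbers in reads were over 0.1 in every pair only for 25 ng against no induction (0.222 to 0.515), where the block gave 0 calls.

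With 1 library left out at a time, higher and lower counts relative to the library median ranged over 5 to 6 and 0 to 4 at 250 ng against no induction, 3 to 6 and 0 to 2 at 25 ng, 5 to 8 and 1 to 8 at 250 ng against ADARcdMUT, 5 to 9 and 0 to 8 at 25 ng against ADARcdMUT, and 0 to 1 higher for ADARcdMUT against no induction (0 to 13 on the absolute scale). Position 5 contrasts ranged over 3 to 5 higher and 0 to 5 lower at 250 ng and 2 to 6 and 0 to 2 at 25 ng. Second-substitution contrasts ranged over 1 to 6 higher and 42 to 98 lower at 250 ng and 0 to 4 and 23 to 74 at 25 ng. Calls on reads ranged over 0 to 32 higher and 0 to 18 lower at 250 ng and 0 to 13 and 0 to 2 with ADARcdMUT alone. The median level ranged from 1.79% to 1.90% without induction, 4.24% to 4.40% at 25 ng and 7.80% to 7.88% at 250 ng, and from 1.90% to 2.03% with ADARcdMUT alone.

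Replicates of the 108 elements differed by an SD of 0.209 points at 250 ng and 0.165 points without induction, and the part of depth or of the number of molecules in this spread was not tested. Without induction the SD between the elements' means was 0.116 points. The 2 SDs are not like measures, since that of replicates is of single libraries and holds shifts common to a library. In log2 odds relative to the median of the 108 elements they were 0.0997 between replicates and 0.0945 between the elements' means. Correlations between replicates were 0.278 to 0.541 without induction and 0.882 to 0.920 at 250 ng, so the order of elements was less alike between replicates without induction.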

Other observations

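The edits on each edited read differed as well as the share of reads edited. At 250 ng the reads of the 6 elements with TGTA that had at least 1 edit held 2.80 ± 0.015 edits (SD, n = 3), against 2.46 ± 0.018 for the other 102 elements, and 24.9% ± 0.614 of their reads were edited, against 22.2% ± 0.422. With ADARcdMUT alone the edits per edited read were 1.90 ± 0.070 for the 6 and 1.89 ± 0.041 for the 102, and without induction 1.82 ± 0.097 and 1.82 ± 0.081. At 25 ng they were 2.44 ± 0.130 for the 6 and 2.18 ± 0.087 for the 102. These differences follow from the same reads as the editing level and were not tested apart from it.

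Replicates at 250 ng ordered the 108 elements alike, with Pearson correlations of 0.882 to 0.920 between libraries across elements, and 0.661 to 0.751 over the 102 without TGTA. Without induction the correlations were 0.278 to 0.541. Relative changes in 2 comparisons that share no library, 250 ng against ADARcdMUT and 25 ng against no induction, had a Pearson correlation of 0.67 and a Spearman correlation of 0.44 across the 108 elements, and of 0.34 and 0.34 across the 102 without TGTA. For the other pair that shares no library, 250 ng against no induction and 25 ng against ADARcdMUT, they were 0.63 and 0.39 across the 108, and 0.28 and 0.27 across the 102. These correlations are across elements, which are not replicates, and elements of a family share their letters.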
